A study of Mus musculus with 16 samples.

Results

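The 44 genes described here encode collagens and other parts of the extracellular matrix, with the enzymes that crosslink, fold and remodel it. They were taken by name, and all 44 were present among the 15156 genes of the deposited table and among the 14220 with enough reads to be tested. They were ordered into 7 role groups: 6 fibrillar collagens, 7 other interstitial collagens, 7 basement membrane genes, 10 matricellular proteins and proteoglycans, 4 elastic fibre genes, 5 crosslinking and collagen folding genes and 5 remodelling genes. Total RNA came from whole pancreas of 16 mice in 4 genotype groups of 4 animals. DC mice were Daxx fl/fl with a Pdx1-Cre transgene, MC mice were Men1 fl/fl with Pdx1-Cre, DMC mice were Daxx fl/fl and Men1 fl/fl with Pdx1-Cre, and WT mice were wild type, with no floxed allele or Cre named in their labels. All 4 groups had chronic pancreatitis induced in the same way: at 6 to 10 weeks of age the mice received caerulein at 50 ug/kg in 4 hourly injections, on 3 days a week for 3 weeks, and tissue was taken 5 days after the last treatment. Pancreas without caerulein was not analysed here, so every value below is a level in injured tissue. The Pdx1 promoter drives Cre in the epithelial lineage of the pancreas, so the floxed alleles of fibroblasts and vessels are not its target. No Cre-only or floxed-only control was analysed here, so in comparisons with WT the floxed allele, the Cre and the genotype as a whole cannot be told apart. In DMC against DC and DMC against MC both groups carry Pdx1-Cre, and there the floxed allele and the rest of the genotype cannot be told apart.

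The interstitial matrix of the pancreas is made mainly by fibroblasts and stellate cells, and it accumulates when the gland is injured repeatedly, as with caerulein, an analogue of cholecystokinin that overstimulates and injures acinar cells. Fibrillar collagens are secreted as procollagen triple helices, trimmed, assembled into fibrils and then joined by lysyl oxidases. Basement membranes are separate sheets of type IV collagen, laminin and nidogen under epithelium and around vessels, and matrix metalloproteinases and their tissue inhibitors set how fast both kinds of matrix turn over. In whole tissue, fewer cells of a type and less RNA per cell cannot be told apart.

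Promoter sequence is shown for Thbs4, the single member that passed the test in any comparison, for Col3a1, the member with the most reads, and for Col4a1 and Col4a2, which start from opposite strands of the same stretch of DNA. Each window runs from 250 bases before to 50 bases after the gene's start in RefSeq on GRCm38.p6, 5′ to 3′ on the gene's strand, and windows were found for 29 of the 44 members. Capitals mark matches, on either strand, to 4 motifs. These were the TATA box with the letters TATAAA, the box that factor NF-Y binds with the letters CCAAT, the GC box with the letters GGGCGG, and the letters CAGAC, which hold the core of the Smad binding element. No match overlapped another in these windows. The windows lie at chr13:92794769-92795068 (minus strand) for Thbs4, chr1:45311288-45311587 (plus strand) for Col3a1, chr8:11312777-11313076 (minus strand) for Col4a1 and chr8:11312555-11312854 (plus strand) for Col4a2.
Thbs4: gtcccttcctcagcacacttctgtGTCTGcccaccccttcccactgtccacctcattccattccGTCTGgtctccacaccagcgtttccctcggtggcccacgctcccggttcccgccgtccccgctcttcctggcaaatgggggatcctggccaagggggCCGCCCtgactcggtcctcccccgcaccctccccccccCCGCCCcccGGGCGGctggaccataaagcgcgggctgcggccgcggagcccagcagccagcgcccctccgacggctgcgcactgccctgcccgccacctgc
Col3a1: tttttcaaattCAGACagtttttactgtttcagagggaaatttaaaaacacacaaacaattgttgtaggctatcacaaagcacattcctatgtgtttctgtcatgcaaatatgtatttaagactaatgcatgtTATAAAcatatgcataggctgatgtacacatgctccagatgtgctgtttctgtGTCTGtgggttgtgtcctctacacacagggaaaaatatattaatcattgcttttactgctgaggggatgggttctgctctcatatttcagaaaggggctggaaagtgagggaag
Col4a1: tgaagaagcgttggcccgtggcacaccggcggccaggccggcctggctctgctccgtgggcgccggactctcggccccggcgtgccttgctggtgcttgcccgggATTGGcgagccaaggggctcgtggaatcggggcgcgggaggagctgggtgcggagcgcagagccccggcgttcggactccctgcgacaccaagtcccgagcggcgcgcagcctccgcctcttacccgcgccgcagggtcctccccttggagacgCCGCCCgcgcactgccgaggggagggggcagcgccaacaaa
Col4a2: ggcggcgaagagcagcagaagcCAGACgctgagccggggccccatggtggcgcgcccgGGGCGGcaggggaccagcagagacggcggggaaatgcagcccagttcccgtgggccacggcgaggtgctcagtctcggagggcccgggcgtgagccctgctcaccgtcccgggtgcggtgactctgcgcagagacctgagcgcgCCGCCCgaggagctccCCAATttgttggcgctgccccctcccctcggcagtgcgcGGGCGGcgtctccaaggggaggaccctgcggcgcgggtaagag
The Col4a1 and Col4a2 windows share 78 bases, read from opposite strands. Of the 29 members, 22 had GGGCGG in their window (75.9%), against 38.2% of the 27025 genes with windows of the same length. CCAAT was present in 13 (44.8% against 41.1%), CAGAC in 17 (58.6% against 53.2%) and TATAAA in 4 (13.8% against 15.7%). The 27025 genes were not limited to those tested here, whereas all the members were tested. The members' windows also had a higher GC content, with a median of 61.0% against 52.7%. A match is a string of letters and not a measured binding site.

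Libraries held 13481063 to 23728309 reads, of which the 10 most abundant genes, mainly those of digestive enzymes, took 33.5 to 51.8%. The Men1 level checked the labels: it lay at 116 to 147 normalized counts in MC and 157 to 178 in DMC, against 331 to 459 in WT, and fell in both (limma adjusted p = 6.2e-05 and 0.000713). Daxx averaged 223 ± 15.6 in DC and 182 ± 30.4 in DMC, against 263 ± 65.0 in WT (SD, n = 4), a difference that did not pass (limma adjusted p = 0.683 and 0.193). These values are totals over the whole gene, and the labels do not say which exons the floxed alleles remove. High Y-linked counts were found in 1 of 4 DC libraries and in 2 of 4 in each other group. DC replicate 1 and DMC replicate 3 stood apart from their groups over the matrix genes, as did MC replicate 4. DC replicate 1 was the highest of all 16 libraries for 31 members, and DMC replicate 3 was the lowest for 15. MC replicate 4 was the highest MC library for 30. DC replicate 1 lay above every WT library for 41 members, against 26.7% of all genes. DMC replicate 3 lay below every WT library for 20, against 17.9%. Medians of the comparisons that use DC replicate 1 or DMC replicate 3 are given with and without them. Counts at an unadjusted p are given so for all of these but DMC against MC. In MC against WT and the interaction, medians and counts at an unadjusted p are not given without MC replicate 4.

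Matrix genes were most often highest in DC and lowest in WT, and 1 member passed the test. By the group mean of normalized counts, DC was highest for 33 of the 44 members, MC for 8, DMC for 2 and WT for 1, Tnc, while WT was lowest for 37. By the group mean of log2(normalized count + 1), DC was highest for 32 members and MC for 10, and WT was lowest for 35. On that log2 scale the members fell into 10 different orders of the 4 groups, of which DC above MC above DMC above WT was the most frequent, with 17 members. The orders were not tested, and the shares of all genes highest or lowest in each group are not given here. Each library's matrix level, the mean over the members of log2(normalized count + 1) less each gene's mean over the 16 libraries, lay between -0.10 and 0.84 in DC, -0.06 and 0.39 in MC, -0.54 and 0.13 in DMC, and -0.43 and -0.25 in WT. All 4 DC and all 4 MC libraries therefore lay above all 4 WT libraries, while DMC replicate 3 was below every WT library. MC replicate 4 stood at 0.39, and the other MC libraries stood between -0.06 and -0.02. As a share of all reads, the 44 genes took 0.352 to 1.07% in DC, 0.353 to 0.683% in MC, 0.224 to 0.510% in DMC and 0.184 to 0.318% in WT, so DC and MC did not overlap WT. Genes at large also stood higher on this scale. With scaling to total reads, the median log2 difference of all genes from WT was 0.38 in DC and 0.23 in MC. All 4 libraries lay above all 4 WT libraries for 10.9% of all genes in DC and 8.3% in MC.

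**Figure D1:**
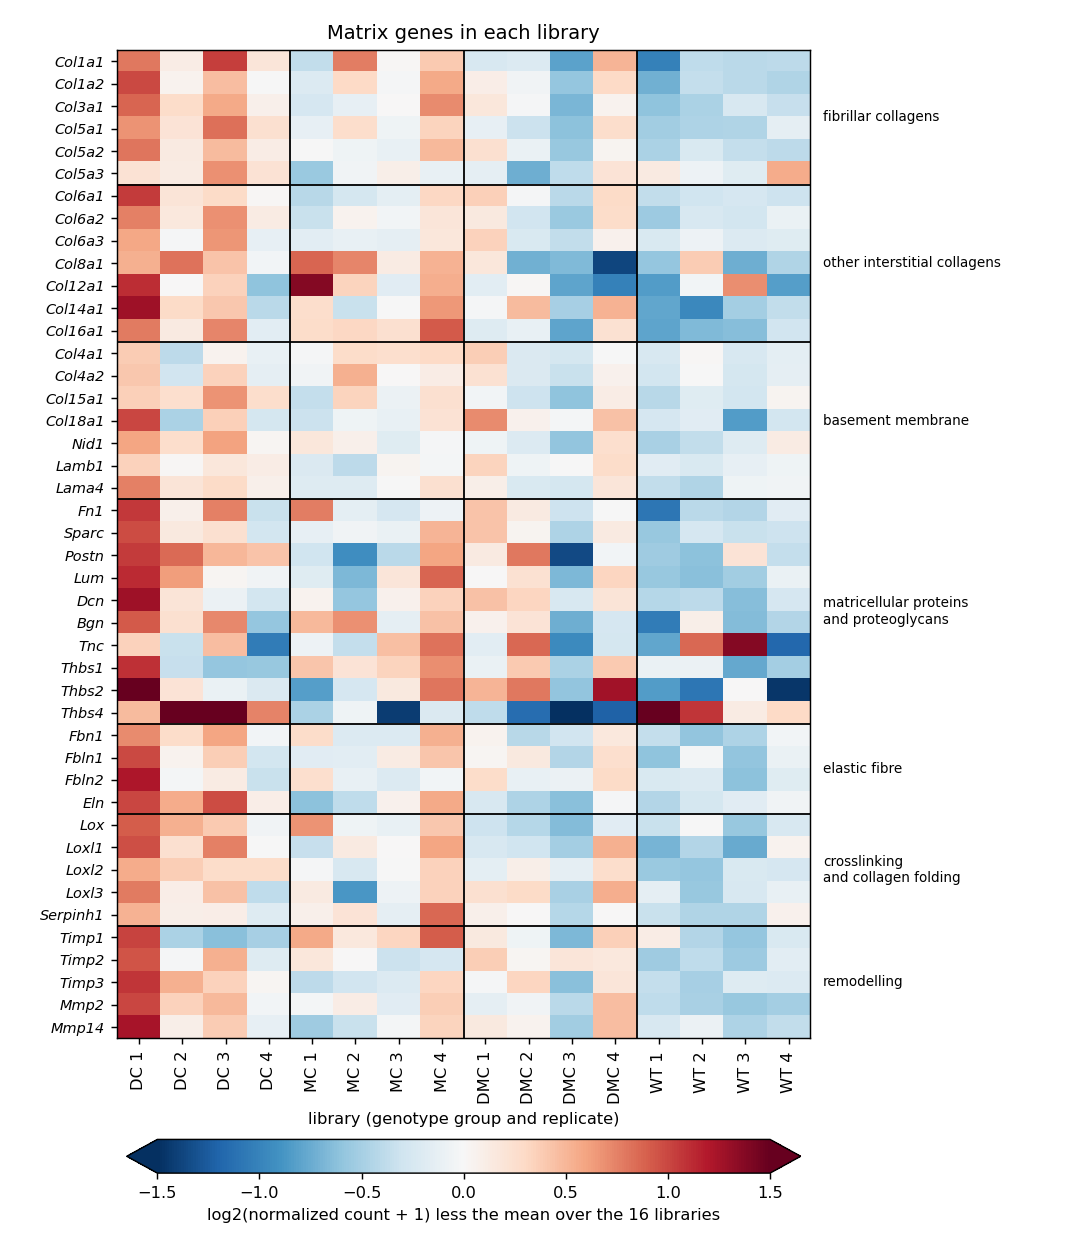
Matrix genes in each library. Rows are the 44 genes in their 7 role groups and columns are the 16 libraries, 4 for each of DC, MC, DMC and WT; colour is log2(normalized count + 1) less the gene's mean over the 16 libraries, with red above and blue below the mean. DC replicate 1 is the reddest column, being the highest library for 31 genes, DMC replicate 3 is blue, being the lowest for 15, and Thbs4 stands apart with blue in MC and DMC.

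The comparison of DC with WT sets mice with floxed Daxx and Pdx1-Cre against wild type. The 6 fibrillar collagen genes, Mmp2, Loxl2 and Eln were among the members with higher DC values. In 17 members (Col1a1, Col1a2, Col3a1, Col5a1, Col5a2, Col6a1, Col6a2, Col16a1, Col15a1, Lamb1, Lama4, Postn, Lum, Eln, Loxl2, Timp3 and Mmp2) all 4 DC libraries lay above all 4 WT libraries, which held for 3.72% of all genes. Even so, limma called 0 of the 44 members at an adjusted p under 0.05, and it called 0.0211% of all tested genes higher. At an unadjusted p under 0.05, 33 members were higher and 0 lower, against 7.47% and 4.24% of all genes. The log2 difference was above 0 for 43 members, all but Tnc, and for 47.3% of all genes, with a median of 0.71 against -0.02 over all genes. By tool, edgeR on the recovered reads also called 0 members, DESeq2 called 18, all higher, where it called 1.58% of all genes higher, and limma with library quality weights called 4 (Col5a1, Loxl2, Timp3 and Mmp2), where it called 0.907% higher. Without DC replicate 1 the median was 0.55. At an unadjusted p under 0.05, 23 members were then higher and 0 lower, where 8.2% of all genes differed in either direction. Members without overlap then numbered 17, against 5.37% of all genes. Without DC replicate 4, the lowest DC library for 33 members, they numbered 34, against 7.33% of all genes. Among the 22 members given per library, the differences that shrank by more than 1.5 times without DC replicate 1 were those of Dcn (to 0.37), Col18a1 (to 0.25), Fbln2 (to 0.22) and Col4a1 (to 0.0027), and that of Thbs4 grew to 0.53.

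In MC against WT, 0 members passed with limma, which called 0.485% of all genes higher and 0.295% lower, and 0 passed with edgeR. At an unadjusted p under 0.05, 17 were higher and 1, Thbs4, was lower, against 7.51% and 5.24% of all genes. The median log2 difference was 0.41 (-0.02 over all genes), with 41 members above 0, against 47.1% of all genes, and Col5a3, Lamb1 and Thbs4 below. All 4 MC libraries lay above all 4 WT libraries for 10 members (Col1a1, Col1a2, Col5a1, Col5a2, Col14a1, Col16a1, Sparc, Thbs1, Timp1 and Mmp2), against 4.16% of all genes, and below them for 1, Thbs4, against 3.23%. DESeq2, limma with library quality weights and a limma fit of only these groups each called 1 member higher, Col16a1, where they called 1.71%, 1.23% and 0.267% of all genes higher. The count above WT without overlap was 16 without WT replicate 2, against 5.68% of all genes, and also 16 without WT replicate 4, against 6.94%. Without MC replicate 4 it was 10, against 4.85% of all genes. The median and the counts at an unadjusted p above include MC replicate 4.

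In DMC against WT, 1 member, Thbs4, fell, where limma called 0.197% of all genes lower, and 0 rose, where it called 0.591% higher. At an unadjusted p under 0.05, 8 members were higher and 1 lower, against 8.43% and 4.11% of all genes, and the median log2 difference was 0.29 (-0.02 over all genes). The difference was above 0 for 36 members, against 47.3% of all genes, and for 5 of them (Col18a1, Dcn, Fbln2, Loxl2 and Timp2) all 4 DMC libraries lay above all 4 WT libraries, against 5.19% of all genes. Thbs4 was the single member whose DMC libraries all lay below WT, against 3.02% of all genes. Without DMC replicate 3 the median was 0.46. At an unadjusted p under 0.05, 17 members were higher and 1 lower, where 14.4% of all genes differed in either direction. Then 21 members lay above WT without overlap, where 10.6% of all genes did.

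In DMC against DC, groups that share floxed Daxx and Pdx1-Cre and differ in floxed Men1, Thbs4 again fell, where limma called 0.267% of all genes lower. At an unadjusted p under 0.05, 20 members were lower and 0 higher, against 6.03% and 7.21% of all genes. The median log2 difference was -0.41 (0.00 over all genes), with 39 members below 0, against 49.4% of all genes, and Col18a1, Tnc, Thbs1, Thbs2 and Timp1 above it. In 5 members (Col15a1, Thbs4, Eln, Lox and Loxl2) all 4 DMC libraries lay below all 4 DC libraries, against 2.8% of all genes. DESeq2 called 4 members (Col5a1, Thbs4, Eln and Lox), where it called 1.12% of all genes lower. Without DC replicate 1 the median was -0.24. At an unadjusted p under 0.05, 9 members were then lower and 1 higher, where 17.5% of all genes differed in either direction. Without DMC replicate 3 the median was -0.28, and 8 members were lower and 0 higher at that p, where 10.6% of all genes differed in either direction. The number below DC without overlap was 5 without DC replicate 1, against 7.96% of all genes, and 5 without DMC replicate 3, against 4.01%. It was 13 without DC replicate 4, against 4.61% of all genes. Leaving out DMC replicate 1 gave 8 (4.01% of all genes), and leaving out DMC replicate 4 gave 11 (4.07%).

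In DMC against MC, 0 members passed with limma, edgeR or DESeq2, and limma called 0.00703% of all genes higher and 0% lower. At an unadjusted p under 0.05, 1 member was higher and 4 were lower, against 3.19% and 2.38% of all genes, with a median of -0.14. In Col16a1 and Lox all 4 DMC libraries lay below all 4 MC libraries, against 1.86% of all genes, and without MC replicate 3 this held for 6 members and 3.52% of all genes. Without DMC replicate 3 the median was -0.01, and without MC replicate 4 it was -0.03. Leaving out DMC replicate 3, 2 members lay below MC without overlap, against 4.38% of all genes.

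The interaction is the log2 difference of DMC from WT less the sum of the DC and MC differences, and it asks whether those genotype differences added up. DC, MC and DMC carry Pdx1-Cre and the WT labels name none. Any difference from WT that the Cre groups share therefore enters the interaction with a negative sign. It cannot be told apart here from Daxx and Men1 differences that do not add up. The interaction was below 0 for all 44 members, against 47.9% of all genes, with a median of -0.77 (0.02 over all genes). At an unadjusted p under 0.05, 24 members were below 0, against 4.61% of all genes, but 0 passed with limma, whose lowest adjusted p among the members was 0.270, and 0 with edgeR, where limma called 0% of all genes. Without DC replicate 1 the median was -0.69, with 41 members below 0 and 19 at an unadjusted p under 0.05, and without DMC replicate 3 it was -0.63, with 42 below 0 and 20 at that p. In both fits 0 members were above 0 at that p. Over all genes, 8.06% and 6.56% then had such a p in either direction. DESeq2 called 4 members below 0 (Col5a1, Col8a1, Col16a1 and Lox), where it called 0.211% of all genes. These comparisons share the WT libraries, or the DC, MC or DMC libraries, so their members' values are not independent of each other.

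**Figure D2:**
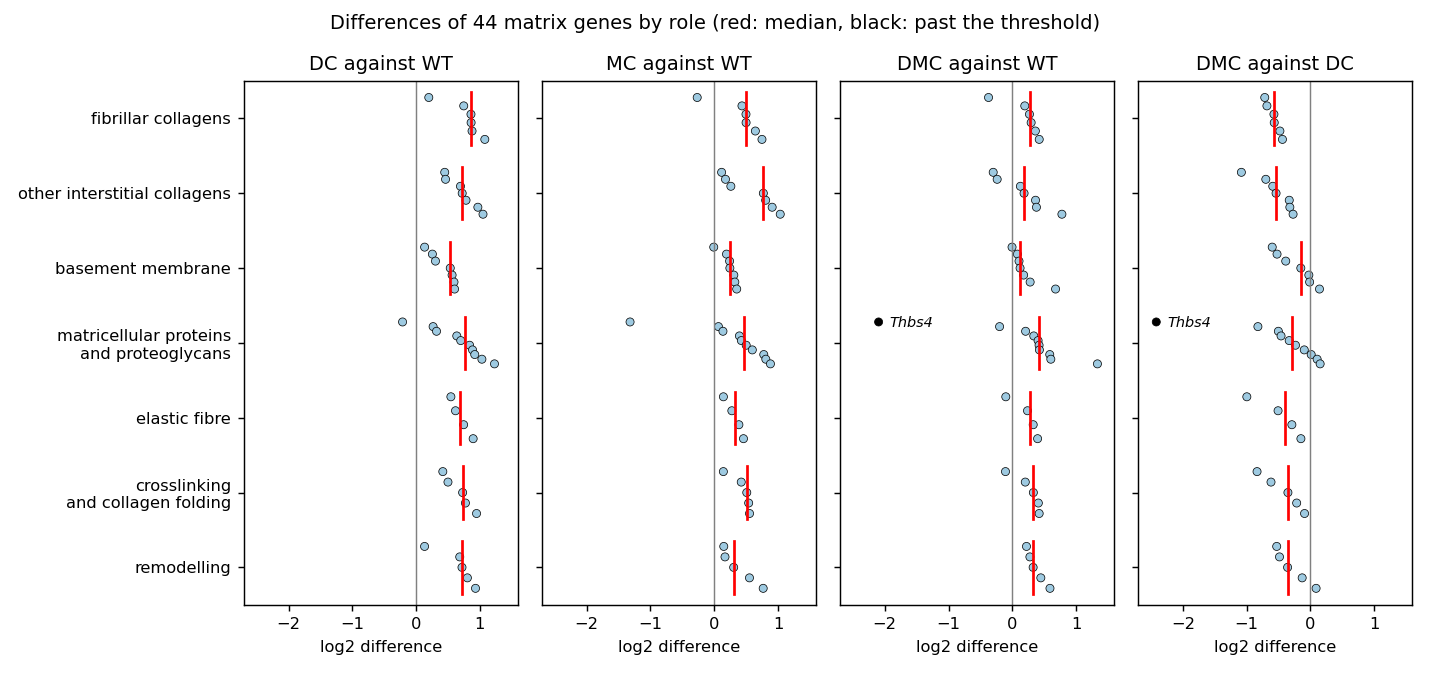
Differences of the 44 matrix genes by role. Each point is the log2 difference of 1 gene in limma, in DC against WT, MC against WT, DMC against WT and DMC against DC; red bars are role medians and black points passed at an adjusted p under 0.05. Role medians in DC against WT lie between 0.54 and 0.86, and Thbs4 at -2.10 and -2.42 is the single black point in each of the panels of DMC against WT and DMC against DC.

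Without DC replicate 1, role medians in DC against WT lay between 0.25, for basement membrane genes, and 0.69, for fibrillar collagens. Without DMC replicate 3, those in DMC against WT lay between 0.23, for basement membrane genes, and 0.61, for matricellular proteins and proteoglycans.

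The fibrillar collagens had the highest role median in DC against WT, 0.86 on the log2 scale, with medians of 0.50 in MC and 0.28 in DMC against WT. Col3a1, the single chain of type III collagen, was the most abundant member and had 29538, 19444, 23847 and 17053 normalized counts in DC, 13547, 14774, 16146 and 26440.2 in MC, 18094, 15890.5, 10045 and 16779 in DMC and 10594, 11604, 13648 and 12725 in WT. All 4 DC libraries were above all 4 WT libraries, whereas MC and DMC overlapped WT, and the DC difference was 0.86 ± 0.23 (SE, limma adjusted p = 0.152). Per length it led the members as well, with 139 ± 63.0 RPKM (reads per length and library size) in DC, 98.3 ± 51.3 in MC, 85.9 ± 30.1 in DMC and 55.5 ± 15.5 in WT (SD, n = 4), taking the union of its exons as its length. Col1a2, the second chain of type I collagen, had 9596, 5006, 6660.0 and 4811 normalized counts in DC, 4186, 5934, 4770.4 and 7155 in MC, 5167, 4630.1, 3225 and 5914 in DMC and 2931, 3761, 3652 and 3514 in WT. DC and MC lay wholly above WT, and DMC overlapped WT through replicate 3. The log2 difference of Col1a2 was 0.65 ± 0.23 (SE, limma adjusted p = 0.237) in MC and 0.42 ± 0.23 (SE, limma adjusted p = 0.461) in DMC.

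Col5a1, a chain of type V collagen, which is needed to start and limit collagen fibrils, had 1892, 1369.7, 2105 and 1411 normalized counts in DC, 1096, 1433, 1142 and 1499 in MC, 1096, 955, 776 and 1429 in DMC and 826, 862, 871 and 1087 in WT. DC and MC were again wholly above WT, and 3 of the 4 DMC libraries lay below every DC library. Its difference of 0.88 ± 0.18 (SE, limma adjusted p = 0.115) in DC against WT shared the lowest adjusted p of the members in that comparison, and its interaction was -1.18 ± 0.26 (SE, limma adjusted p = 0.286). Col1a1, the other chain of type I collagen, averaged 3760.2 ± 1185 normalized counts in DC, 3012 ± 1012 in MC, 2326 ± 897 in DMC and 1743 ± 334 in WT (SD, n = 4). Col5a2, the other main type V chain, averaged 2257 ± 533 normalized counts in DC, 1809 ± 379.7 in MC, 1620.3 ± 360.3 in DMC and 1319.9 ± 91.3 in WT. Both had DC and MC wholly above WT. Col5a3, another type V chain, averaged 519 ± 97.7 normalized counts in DC, 376 ± 66.9 in MC, 355 ± 96.8 in DMC and 456 ± 109.9 in WT, and its 4 groups overlapped. The count of Col3a1 per count of Col1a1, in which each gene's length cancels between groups, was 4.62 to 7.19 in DC, 3.45 to 8.02 in MC, 4.70 to 8.51 in DMC and 6.02 to 8.52 in WT, so the groups overlapped in the balance of type III to type I collagen.

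Other interstitial collagens had role medians of 0.72 in DC, 0.77 in MC and 0.18 in DMC against WT. Col16a1, a fibril-associated collagen, had 723, 463, 704 and 379 normalized counts in DC, 512, 525, 498 and 802 in MC, 369.7, 391, 243 and 493 in DMC and 244, 266, 270.1 and 345 in WT. DC and MC lay wholly above WT, and every MC library was above every DMC library. Its difference in MC against WT, 1.04 ± 0.24 (SE, limma adjusted p = 0.0535), was the closest of the members to the threshold there, and its interaction of -1.63 ± 0.34 (SE, limma adjusted p = 0.270) had the lowest adjusted p of the members. Without MC replicate 4, at 802 the highest library, the MC difference was 0.87 (limma adjusted p = 0.166).

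Col6a1, a chain of the type VI collagen that forms beaded filaments around cells, had 5623, 3095, 3320.3 and 2739 normalized counts in DC, 2032, 2251, 2443 and 3359 in MC, 3489.8, 2679, 2042 and 3305 in DMC and 2104, 2198, 2272 and 2185 in WT. DC was wholly above WT, whereas 2 MC libraries and 1 DMC library lay within or below the WT range, and the DC difference was 0.70 ± 0.21 (SE, limma adjusted p = 0.214). Col14a1, another fibril-associated collagen, had 4913, 2479.8, 2675 and 1538 normalized counts in DC, 2442, 1616, 2028 and 3197 in MC, 1998, 2813, 1436 and 2924 in DMC and 1177, 1037, 1421 and 1571 in WT. All MC libraries were above WT, and 1 DC and 1 DMC library lay within the WT range, with a DMC difference of 0.78 ± 0.31 (SE, limma adjusted p = 0.303). Of the other type VI chains, Col6a2 averaged 2615 ± 601 normalized counts in DC, 1876 ± 274 in MC, 1811 ± 469.8 in DMC and 1562 ± 196 in WT. Col6a3 averaged 2296 ± 628 normalized counts in DC, 1779 ± 199 in MC, 1817 ± 408 in DMC and 1635 ± 74.4 in WT. Col8a1, a short-chain collagen of vessel walls, averaged 169.5 ± 40.2 normalized counts in DC, 184 ± 39.7 in MC, 83.7 ± 38.4 in DMC and 101 ± 39.5 in WT. Col12a1, which is fibril-associated, averaged 226 ± 114 normalized counts in DC, 276 ± 132 in MC, 132 ± 44.2 in DMC and 165 ± 89.8 in WT (SD, n = 4 throughout). Col8a1 and Col12a1 were the least abundant members per length of their exon union, and their WT libraries overlapped every other group.

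Basement membrane genes had the lowest role medians, 0.54 in DC, 0.25 in MC and 0.12 in DMC against WT. Col4a1, whose product joins that of Col4a2 in the main network of the basement membrane, had 3929.6, 2313, 3141 and 2803 normalized counts in DC, 2989, 3657, 3616 and 3719 in MC, 3902, 2602, 2519.8 and 3025 in DMC and 2571, 3054, 2575 and 2731 in WT. Of the 4 MC libraries, 3 exceeded every WT library, DC reached from below to above WT, and the differences were 0.13 ± 0.16 (SE, limma adjusted p = 0.799) in DC and 0.35 ± 0.16 (SE, limma adjusted p = 0.362) in MC. Col4a2 averaged 1607 ± 374 normalized counts in DC, 1672 ± 329 in MC, 1435 ± 256 in DMC and 1322 ± 121 in WT (SD, n = 4). The 2 genes lie head to head at chr8:11198423-11312826 and chr8:11312805-11449287 on GRCm38 and overlap by 22 bases. The count of Col4a2 per count of Col4a1 was 0.484 to 0.598 in DC, 0.413 to 0.589 in MC, 0.445 to 0.513 in DMC and 0.475 to 0.493 in WT, and the groups overlapped.

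Col15a1, a collagen that links basement membranes to the fibrils around them, had 1624, 1517, 2027 and 1523 normalized counts in DC, 993, 1603, 1193 and 1505 in MC, 1238, 1023, 833 and 1369.8 in DMC and 951, 1118, 1048 and 1312 in WT. DC was wholly above both WT and DMC, and MC and DMC overlapped WT, with an interaction of -0.84 ± 0.25 (SE, limma adjusted p = 0.398). Col18a1, whose end fragment is endostatin, had 899.8, 322, 571 and 372 normalized counts in DC, 357, 427, 413 and 519 in MC, 734, 468, 439 and 606 in DMC and 377, 399, 250.5 and 369 in WT. DMC was wholly above WT, with a difference of 0.68 ± 0.27 (SE, limma adjusted p = 0.303), while 2 DC libraries lay within the WT range. Lama4, the laminin chain of vessel basement membranes, had 1602, 1088, 1161 and 1002 normalized counts in DC, 827, 830.2, 941 and 1119 in MC, 1012, 808, 789 and 1075 in DMC and 734, 694, 909 and 914 in WT. DC was wholly above WT, with a difference of 0.56 ± 0.16 (SE, limma adjusted p = 0.169), and MC and DMC overlapped WT. Nid1, which bridges laminin and type IV collagen, averaged 2266 ± 423 normalized counts in DC, 1750.3 ± 175 in MC, 1588 ± 376 in DMC and 1489 ± 281 in WT. Lamb1, a chain shared by many laminins, averaged 1175 ± 117 normalized counts in DC, 949.9 ± 128 in MC, 1159 ± 160.0 in DMC and 949 ± 48.3 in WT (SD, n = 4).

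Among the matricellular proteins and proteoglycans was Thbs4, the member that passed the test. It encodes a thrombospondin, a secreted protein of several identical chains that binds collagen, and lies at chr13:92751590-92794818 on the minus strand of GRCm38. Thbs4 had 93.0, 192, 212 and 112 normalized counts in DC, 47.8, 63.5, 24.3 and 57.3 in MC, 51.0, 29.8, 10.5 and 28.3 in DMC and 205, 141, 72.6 and 82.4 in WT. All 4 MC and all 4 DMC libraries were below all 4 WT and all 4 DC libraries, so the groups with floxed Men1 did not overlap those without it. Thbs4 fell in DMC against WT, with a log2 difference of -2.10 ± 0.45 (SE, limma adjusted p = 0.0445), or 0.234 of the WT level on that scale. It fell in DMC against DC as well, with a log2 difference of -2.42 ± 0.45 (SE, limma adjusted p = 0.0265), or 0.187 of the DC level. In MC against WT the difference was -1.32 ± 0.45 (SE, limma adjusted p = 0.220) and in DC against WT it was 0.32 ± 0.45 (SE, limma adjusted p = 0.836). In DMC against MC it was -0.78 ± 0.45 (SE, limma adjusted p = 0.943), and the interaction was -1.10 ± 0.64 (SE, limma adjusted p = 0.703). The DMC difference from WT sat near the threshold: without 1 library at a time it ranged from -2.41 to -1.68 and its limma adjusted p from 0.0325 to 0.127. It passed in 3 of the 16 such fits, those without DC replicate 1, MC replicate 3 or DMC replicate 1. It also lost its call with total read scaling (limma adjusted p = 0.142), in a fit of only these groups (0.122) and with a mean filter of 50 normalized counts (0.0624). The DMC difference from DC lost its call without DC replicate 2, 3 or 4 or DMC replicate 3 or 4, with limma adjusted p from 0.0637 to 0.106, and in a fit of only these groups (0.0539). By other tools, edgeR gave Thbs4 an adjusted p of 0.0486 in DMC against WT and 0.0325 in DMC against DC, and DESeq2 0.000869 and 6.4e-05.

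**Figure D3:**
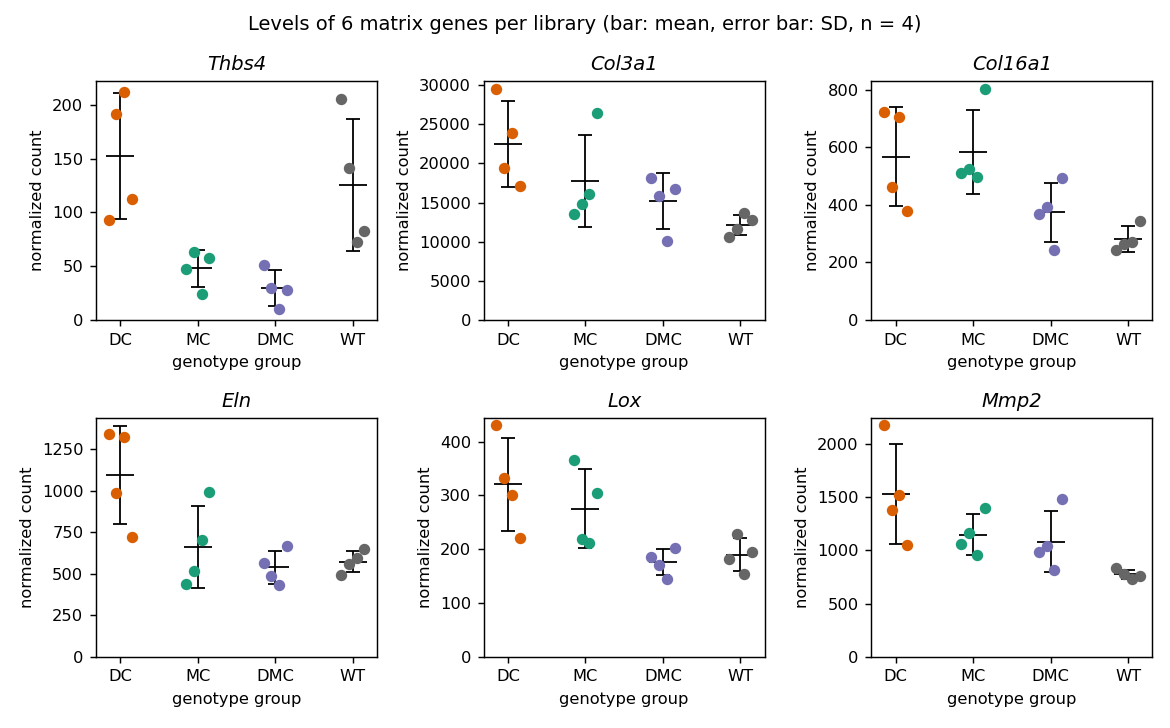
Levels of 6 matrix genes per library. Each point is the normalized count of 1 library in DC, MC, DMC or WT, with a bar at the group mean and an error bar of 1 SD (n = 4). For Thbs4 the MC and DMC points all lie under the DC and WT points; for Col3a1, Col16a1, Eln and Mmp2 all DC points lie above all WT points, and for Lox all DMC points lie below all DC points.

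The role median over all 10 members was 0.77 in DC, 0.46 in MC and 0.41 in DMC against WT. Fn1, fibronectin, on which collagen fibrils assemble, had 8137, 4122, 6606 and 3100.3 normalized counts in DC, 6654, 3519, 3261 and 3682 in MC, 5222, 4276, 3140.3 and 3895 in DMC and 1833, 2950.2, 2864 and 3459 in WT. DC replicate 4, MC replicate 3 and DMC replicate 3 lay within the WT range, and the DC difference was 0.92 ± 0.30 (SE, limma adjusted p = 0.236). Dcn, decorin, a small proteoglycan that coats collagen fibrils, was the most abundant member of the role, with 17231, 8150.3, 6727 and 5923 normalized counts in DC, 7412, 4778, 7465 and 9092 in MC, 9669.9, 8950.4, 6061 and 8170.1 in DMC and 5306, 5465, 4598 and 6021 in WT. DMC lay wholly above WT, by as little as 6061 against 6021 normalized counts, DC replicate 4 lay within the WT range, and the DC difference was 0.70 ± 0.28 (SE, limma adjusted p = 0.334). Bgn, biglycan, a relative of decorin, had 1566, 973, 1355 and 549 normalized counts in DC, 1156, 1324, 749.9 and 1113 in MC, 864, 949, 496 and 691 in DMC and 398, 873, 524 and 606 in WT. WT replicate 2 lay within the DC, MC and DMC ranges, and the interaction was -1.38 ± 0.44 (SE, limma adjusted p = 0.455). Dcn and Lum, which encodes another small proteoglycan, are neighbours on chromosome 10, with 46984 bases between them. Lum averaged 1364 ± 539 normalized counts in DC, 1069 ± 499 in MC, 969 ± 268 in DMC and 705 ± 127 in WT (SD, n = 4). Sparc, a collagen-binding calcium-binding protein, averaged 3988 ± 1529 normalized counts in DC, 3332 ± 768 in MC, 3304 ± 810.0 in DMC and 2444 ± 224 in WT. Postn, periostin, averaged 1789.9 ± 368 normalized counts in DC, 973 ± 458 in MC, 1131 ± 592 in DMC and 884 ± 246 in WT, and all its DC libraries lay above WT. Tnc, tenascin C, averaged 162 ± 69.4 normalized counts in DC, 200.2 ± 72.4 in MC, 167 ± 92.4 in DMC and 225 ± 171 in WT, with 72.5 to 429 in WT alone. Thbs1 averaged 1122 ± 755 normalized counts in DC, 1409 ± 212 in MC, 1124 ± 308 in DMC and 831 ± 186 in WT. Thbs2 averaged 376 ± 269 normalized counts in DC, 263 ± 126 in MC, 384 ± 178 in DMC and 148 ± 70.2 in WT. Of these other thrombospondins, Thbs1 had all 4 MC libraries above WT, and Thbs2 overlapped WT in every group.

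Elastic fibre genes had role medians of 0.68 in DC, 0.33 in MC and 0.28 in DMC against WT. Eln, elastin, the core of the fibre, had 1339.9, 989, 1325 and 721 normalized counts in DC, 439, 516, 700.4 and 995 in MC, 566, 486, 435 and 664 in DMC and 493, 557, 594 and 647 in WT. All DC libraries were above all WT and all DMC libraries, and DMC overlapped WT. The log2 difference of Eln was 0.89 ± 0.24 (SE, limma adjusted p = 0.152) in DC against WT. In DMC against DC the level on that scale was 0.501 of that in DC (limma adjusted p = 0.0775). Fbn1, fibrillin, which forms the microfibrils that elastin is laid on, had 5672, 4184, 5217 and 3362 normalized counts in DC, 4187, 2994, 3008 and 4992 in MC, 3595, 2602, 2831 and 3852 in DMC and 2699.6, 2294, 2519 and 3375 in WT. DC replicate 4 lay just inside the WT range, and the differences were 0.75 ± 0.20 (SE, limma adjusted p = 0.152) in DC and 0.46 ± 0.20 (SE, limma adjusted p = 0.346) in MC. Fbln2, a fibulin that joins elastic fibres to basement membranes, had 2759, 1162, 1293 and 943 normalized counts in DC, 1412, 1103, 1034 and 1152 in MC, 1443, 1102, 1122 and 1450.2 in DMC and 1018, 1036, 779 and 1046 in WT. DMC was wholly above WT, with a difference of 0.40 ± 0.24 (SE, limma adjusted p = 0.525), and 1 DC and 1 MC library lay within the WT range. Fbln1 averaged 693 ± 270.4 normalized counts in DC, 567 ± 114 in MC, 545 ± 107 in DMC and 435 ± 92.6 in WT (SD, n = 4).

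Crosslinking and folding genes had role medians of 0.73 in DC, 0.51 in MC and 0.33 in DMC against WT. Loxl2, a lysyl oxidase relative that crosslinks collagen, had 199.5, 175, 164 and 164 normalized counts in DC, 134, 114, 134 and 173 in MC, 122, 144, 123 and 163 in DMC and 91.9, 90.4, 115 and 113 in WT. DC and DMC were wholly above WT, DC wholly above DMC, and MC replicate 2 lay between WT libraries. Its DC difference of 0.77 ± 0.15 (SE, limma adjusted p = 0.115) shared the lowest adjusted p with Col5a1, and the others were 0.42 ± 0.15 (SE, limma adjusted p = 0.251) in MC and 0.42 ± 0.15 (SE, limma adjusted p = 0.264) in DMC. Lox, lysyl oxidase itself, had 430.3, 333, 301 and 221 normalized counts in DC, 366, 219, 212 and 304 in MC, 185, 171, 145 and 203 in DMC and 182, 229, 154 and 194 in WT. All DMC libraries lay below all DC and all MC libraries and overlapped WT, and the interaction was -1.35 ± 0.30 (SE, limma adjusted p = 0.286). Serpinh1, the HSP47 chaperone that holds procollagen in the endoplasmic reticulum, had 2773, 2059, 2067 and 1689 normalized counts in DC, 2039, 2224, 1759 and 3501 in MC, 2031, 1936, 1441 and 1935 in DMC and 1536, 1410.4, 1418 and 2028 in WT. All groups overlapped WT, whose replicate 4 stood at 2028, and the DC difference was 0.42 ± 0.20 (SE, limma adjusted p = 0.437). Loxl1, which crosslinks elastin, averaged 489 ± 148 normalized counts in DC, 369 ± 101 in MC, 319.6 ± 112 in DMC and 250.5 ± 69.0 in WT. Loxl3, a relative of it, averaged 123 ± 40.9 normalized counts in DC, 95.8 ± 30.8 in MC, 114 ± 31.3 in DMC and 83.3 ± 11.5 in WT (SD, n = 4).

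Remodelling genes had role medians of 0.72 in DC, 0.31 in MC and 0.33 in DMC against WT. Mmp2, a gelatinase that cuts denatured and type IV collagen, had 2173, 1376, 1519 and 1048 normalized counts in DC, 1062, 1167, 958 and 1401 in MC, 984, 1041, 814 and 1486 in DMC and 833, 773, 730.2 and 762 in WT. All DC and all MC libraries were above all WT libraries, and DMC replicate 3 lay within the WT range. The difference of Mmp2 was 0.93 ± 0.20 (SE, limma adjusted p = 0.115) in DC and 0.55 ± 0.20 (SE, limma adjusted p = 0.251) in MC. Timp2, an inhibitor that also helps to activate the Mmp2 proenzyme, had 2369, 1217, 1788 and 1082 normalized counts in DC, 1393, 1245, 985 and 1034 in MC, 1599, 1259.9, 1404 and 1378 in DMC and 852, 951, 844 and 1106 in WT. DMC was wholly above WT, with a difference of 0.59 ± 0.20 (SE, limma adjusted p = 0.218), and 1 DC and 2 MC libraries lay inside the WT range. Mmp14, the membrane-bound protease that activates Mmp2, averaged 719 ± 330.2 normalized counts in DC, 475 ± 128 in MC, 539 ± 144 in DMC and 419 ± 47.4 in WT. Timp3, the inhibitor that binds to the matrix, averaged 1503 ± 479 normalized counts in DC, 952 ± 227 in MC, 1035 ± 268 in DMC and 833 ± 83.1 in WT (SD, n = 4). Timp1, a secreted inhibitor, averaged 81.6 ± 53.4 normalized counts in DC, 114 ± 26.8 in MC, 79.2 ± 22.4 in DMC and 66.6 ± 14.7 in WT, and all 4 of its MC libraries exceeded all WT libraries while 3 of 4 DC libraries exceeded at most the lowest WT library. The count of Timp1 per count of Mmp14 was 0.0772 to 0.135 in DC, 0.200 to 0.338 in MC, 0.139 to 0.156 in DMC and 0.123 to 0.201 in WT. On that ratio MC lay above DC and DMC without overlap, and above WT but for a margin at the edge, 0.200 in the lowest MC library against 0.201 in the highest WT library.

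Several members lie close together in the genome. Within 1 Mb on GRCm38 there were 5 neighbouring pairs: Col3a1 and Col5a2 on chromosome 1 with 24614 bases between them, Col6a2 and Col6a1 on chromosome 10 with 85161, Col6a1 and Col18a1 with 326009, Dcn and Lum, and Col4a1 and Col4a2.

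Markers of fibroblasts and stellate cells had their highest and lowest sums in DC and WT, as the matrix genes did. Summed over the 14 tested markers of that list, libraries held 6025 to 14707 normalized counts in DC, 5772 to 8774 in MC, 5501 to 8468 in DMC and 5274 to 5810 in WT. The summed matrix genes stood at 74359 to 144432 in DC, 75097 to 105607 in MC, 55613 to 87878 in DMC and 54030 to 65278 in WT. Per count of the marker list, matrix counts were 9.82 to 12.9 in DC, 10.0 to 13.1 in MC, 10.0 to 10.8 in DMC and 10.2 to 11.3 in WT, so the groups overlapped on this ratio. DC replicate 1, with the most matrix counts, also had the most marker counts and the lowest ratio of all libraries. On this ratio DC replicate 1 lay below every WT library, and DC replicates 2, 3 and 4, at 11.7, 12.9 and 12.3, lay above every WT library. MC replicates 2 and 4 lay above every WT library as well, and MC replicate 2 had the highest ratio of all, 13.1. MC replicates 1 and 3 lay within or below the WT range. Per count of the markers Pdgfra and Pdgfrb alone, DC lay within the WT range, at 46.0 to 53.7 against 37.6 to 54.7. Of the 14 markers, 1 rose, Cygb in MC against WT, a globin of stellate cells, which averaged 442 ± 135 normalized counts in DC, 533 ± 109.8 in MC, 405 ± 106 in DMC and 240.3 ± 7.29 in WT (SD, n = 4; log2 difference 1.12, limma adjusted p = 0.0236). Lrat, an enzyme of vitamin A storage that defines resting stellate cells, was at 0 in some DC and MC libraries but did not pass in any comparison. Its level in the other libraries is not given here. No other marker of the list was at 0 in any library. The part of fibroblast number in the matrix differences was not tested.

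**Figure D4:**
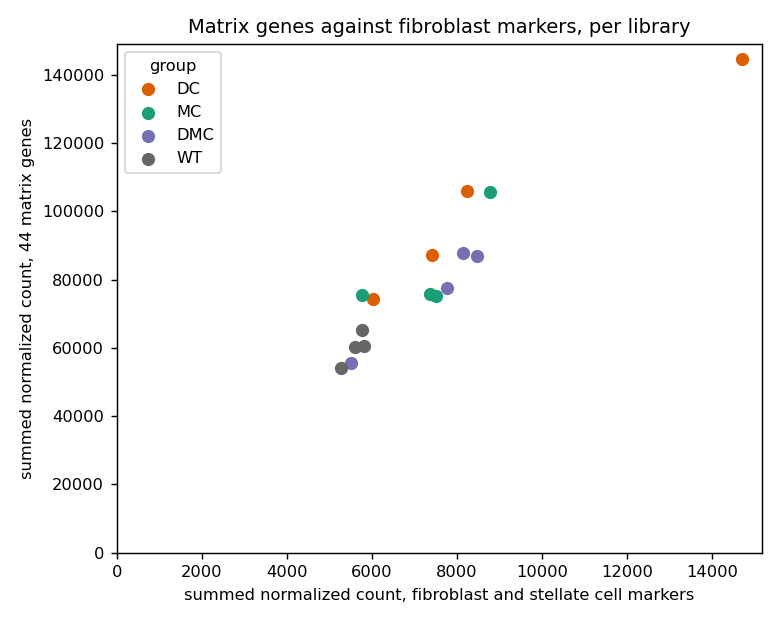
Matrix genes against fibroblast markers, per library. The x axis is the summed normalized count of the fibroblast and stellate cell marker list and the y axis that of the 44 matrix genes, with 1 point per library coloured by group. DC replicate 1 lies far out on both axes at 14707 and 144432, and the WT points sit together at the low end, between 54030 and 65278 on the y axis.

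Markers of other cell types gave these values beside the same comparisons. The share of reads from the 13 acinar genes was 25.8 to 35.6% in DC, 27.0 to 36.2% in MC, 27.9 to 33.4% in DMC and 33.9 to 42.6% in WT, and 1 acinar gene, Ctrl, which encodes a chymotrypsin-like enzyme, fell in DMC against WT (log2 difference -1.93, limma adjusted p = 0.0400). Mesothelial markers, whose cells also make matrix, summed to 1687 to 6251 normalized counts in DC, 1538 to 2342 in MC, 2149 to 3143 in DMC and 1202 to 1907 in WT, with DMC wholly above WT. Smooth muscle and pericyte markers summed to 2040 to 4462 in DC, 1756 to 3331 in MC, 2106 to 5029 in DMC and 1844 to 2972 in WT. Endothelial markers summed to 2874 to 5082 in DC, 2318 to 4005 in MC, 2807 to 3771 in DMC and 2770 to 3313 in WT. Macrophage markers summed to 4330 to 11002 in DC, 4862 to 8238 in MC, 5839 to 9573 in DMC and 3059 to 6853 in WT. DC replicate 1 held the highest DC sum in each of these 4 lists. The other DC libraries reached at most 2540 for mesothelial, 3576 for smooth muscle and pericyte, 3566 for endothelial and 6482 for macrophage markers. No gene of these 4 lists was at 0 in any library or passed in any comparison. None passed in the B and T cell, duct, adipocyte, Schwann cell and Y-linked lists. B and T cell markers summed to 297 to 1750 in DC, 227 to 1343 in MC, 195 to 2395 in DMC and 186 to 6662 in WT. The part of these cells in the matrix differences was not tested.

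A further 4 lists covered the pathway around the members. Of 23 tested genes of TGF-beta ligands, receptors and Smads, the signalling pathway best known for switching on collagen genes, 0 passed with limma in any of the 6 comparisons, and at an unadjusted p under 0.05 there were 9 higher and 1 lower in DC against WT, 4 and 0 in MC, and 1 and 1 in DMC. Over all genes, 7.47% were higher and 4.24% lower at that p in DC, 7.51% and 5.24% in MC, and 8.43% and 4.11% in DMC. Its most abundant genes were the receptors Tgfbr2, with 1264 ± 376 normalized counts in DC, 1291 ± 285 in MC, 1185 ± 236 in DMC and 1033 ± 268 in WT (SD, n = 4), and Tgfbr1. The list's median difference was 0.26 in DC, 0.24 in MC and 0.12 in DMC against WT, below the members' medians of 0.71, 0.41 and 0.29. Of 20 tested collagen processing enzymes, such as the prolyl hydroxylase subunit P4hb, with 41428 ± 9149 normalized counts in DC, 43584 ± 8609 in MC, 46514 ± 15931 in DMC and 50039 ± 7749 in WT, 0 passed, with 7 higher in DC against WT at an unadjusted p under 0.05. P4hb and Ppib, the most abundant of them, also serve other secreted proteins, which acinar cells make in bulk. Of 20 tested matrix receptors, such as Lrp1, an uptake receptor, with 5238 ± 1931 normalized counts in DC, 4181 ± 1051 in MC, 3566 ± 566 in DMC and 3059 ± 629 in WT, 0 passed, with 8 higher and 1 lower in DC against WT at an unadjusted p under 0.05.

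Of 23 other matrix proteases and inhibitors, 1 fell: Adamts9, a protease that cuts the proteoglycan versican. It averaged 2013 ± 494 normalized counts in DC, 1243 ± 191 in MC, 1093 ± 148 in DMC and 2265 ± 247 in WT (SD, n = 4). It fell in MC against WT (log2 difference -0.87, limma adjusted p = 0.0276), in DMC against WT (log2 difference -1.05, limma adjusted p = 0.0107) and in DMC against DC (log2 difference -0.86, limma adjusted p = 0.0333). Like Thbs4, Adamts9 was low in both groups with floxed Men1, but here DC and MC overlapped, at 1389 to 2450 and 997 to 1433 normalized counts. The remaining 22 genes of the list did not pass in any comparison with limma.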

How the data were processed

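Total RNA of whole pancreas was made into strand-specific libraries, per the labels' protocols. Per the submitters' processing notes, the authors used STAR 2.6.0b, GRCm38 and DESeq2; no source used here gives the read counter, the annotation release or the gene filter. Per the submitters' processing notes and the values, the authors deposited a normalized signal: reads per gene over 1 size factor for each library. Every value (100%) was a whole multiple of its library's step within 0.01 reads, which gives back the original reads, with size factors of 0.566 to 1.63.

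Tests covered genes that reached a normalized count of 10 in 4 or more libraries, and log2(normalized count + 1) was fitted with limma 3.58.1 (trend) in R 4.3.3, all 16 libraries in a single fit, with Benjamini-Hochberg adjustment over the 14220 genes in each of 6 contrasts and a threshold of 0.05. Fold values are on that log2 scale and understate changes of low genes. edgeR 4.0.16 (quasi-likelihood) and DESeq2 1.42.0 were run on the recovered reads as alternatives. edgeR called 3 genes in DC, 111 in MC and 102 in DMC against WT. Libraries of a group differed by a chi-square per degree of freedom of 9.04 to 137.9, so none repeated another within sampling noise. The fit was also run on simulated data with changes placed in DMC only and read in DMC against WT, and its outcome is not given here.

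The 44 members, their role groups and the lists of related genes and markers were chosen with earlier results of these data known, so no count over them is independent evidence. Members with values in every library were those past the threshold, the most abundant of each role, and those with the smallest p in each role or comparison, 22 in all; other members are given by group means. Of the related lists, genes past the threshold are named, or 1 or 2 of the most abundant. Gene positions follow GENCODE mouse release 21 (GRCm38) and promoters RefSeq (GRCm38.p6). Gfap, Mmp10 and Mmp13, named in the lists, were not analysed here. Alternatives covered scaling, filter, pseudocount, weights, groups fitted, a replicate block and leaving out libraries. Same-numbered libraries were checked for pairing.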

Additional observations from a re-analysis of the deposited data

Results flagged for a closer look

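In 88 sets of 4 libraries (22 genes in 4 groups), 6 held a library whose gap to its nearest neighbour was large against the group's whole range (Dixon's criterion at 95%). Chance alone picks out about 1 set in 20, so 6 of 88 is close to that share. Col16a1 stood at 802 normalized counts in MC replicate 4, above 498 to 525 in the other MC libraries, and Fn1 at 6654 in MC replicate 1, above 3261 to 3682. Col4a1 stood at 2989 in MC replicate 1, below 3616 to 3719 in the other MC libraries. Serpinh1 stood at 1441 in DMC replicate 3, below 1935 to 2031 in the other DMC libraries. In WT replicate 3, Col18a1 stood at 250.5, below 369 to 399, and Fbln2 at 779, below 1018 to 1046.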

How the results depend on the processing

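Across the alternatives, medians of the 44 members kept their sign in all 6 comparisons. With scaling to total reads, which sets the median of all genes at 0.38 (DC), 0.23 (MC) and 0.27 (DMC) against WT and at -0.34 for the interaction, the members' medians were 1.11 in DC against WT, 0.57 in DMC against WT and -1.13 in the interaction, so relative to all genes the excess was of similar size. The number of members past the threshold in DC against WT was 4 with library quality weights and 18 with DESeq2; in MC against WT it was 1 with either, and 1 with only the groups compared. In DMC against WT it was 0 with a mean filter of 50, total read scaling, only the groups compared, the replicate block or without WT replicates 2 and 3. In DMC against DC it was 7 with weights, 0 with only the groups compared and 4 with DESeq2, and in the interaction 4 with DESeq2. Leaving out 1 library gave from 0 to 1 in MC and DMC against WT and 0 to 2 in DMC against DC. Of the 14220 genes tested, those fits called 38 to 189 in MC against WT, 17 to 183 in DMC against WT and 14 to 188 in DMC against DC. Members without overlap, an analysis chosen after seeing the data, numbered 21 in MC against WT without WT replicates 2 and 3 (11.7% of all genes), 1 in DMC against WT (6.27%) and 1 in DMC against DC (2.66%) with total read scaling, and 3 in DMC against DC (3.52%) with quantile scaling. With 1 library left out against WT they numbered between 17 and 34 (DC), 10 and 16 (MC) and 5 and 21 (DMC), and between 5 and 13 in DMC against DC, while over all genes the shares were 4.63 to 7.33%, 4.85 to 7.01%, 5.77 to 10.6% and 3.76 to 7.96%. Over all genes, calls in DC, MC and DMC against WT and in DMC against DC numbered 281, 391, 331 and 345 with DESeq2, 177, 265, 245 and 1655 with quality weights and 3, 46, 36 and 37 with the replicate block, against 3, 111, 112 and 76 in the fit reported. Of single genes, Col4a1 turned to -0.16 in DC against WT and to 0.067 in the interaction with quality weights. Over 132 values of named members, 21 changed sign under some of 30 alternatives, none larger than 0.37. With the longest transcript as length, the WT level was 97.9 RPKM for Col3a1 and 50.2 RPKM for Dcn, against 55.5 and 40.4 with the union of exons. The causes were not tested.

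Replicate numbers did not pair the libraries: of 24 same-numbered pairs 11 had a correlation over 0.1 (range -0.37 to 0.38), and 1 library correlated best with its own number. With the replicate block, the limma adjusted p of Thbs4 was 0.063 in DMC against WT and 0.0452 in DMC against DC. Depth did not keep any member out of the tests; Thbs4, at 10.5 normalized counts in its lowest library, is the member where counting error weighs most.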
